A study of Mus musculus with 9 samples.

Results

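The genes described here lie around Gt(ROSA)26Sor (Rosa26) on mouse chromosome 6, in a window from 110000000 to 116500000 (GRCm39, the build of the deposited table). The table has 149 rows whose whole span lies in this window, out of 56748, and the 56 with a mean level of at least 1 CPM (a gene's count scaled to the size of its library) over the 9 libraries were taken as members. Members were chosen by position and by that mean, and the window was placed around Gt(ROSA)26Sor and Ssu2 with earlier results of these data known. Values of these 2 genes are therefore given as a description of them and support nothing further. Closest to the required mean were Gm44280 (1.01 CPM), Gm44053 (1.02) and Gm43963 (1.04) inside it, and Cpne9 (0.895), Alox5 (0.894) and D830050J10Rik (0.879) outside it.

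RNA was measured in endothelial cells, the lining of blood vessels, sorted from lungs of 6-week-old C57BL/6 mice as DAPI-negative, CD45-negative and CD31-positive cells. The genotypes were WT, DNMAML and Notch1f/f, with 3 libraries each. DNMAML is the usual name for a dominant-negative Mastermind-like protein that blocks transcription by Notch receptors, and Notch1f/f the usual notation for a loxP-flanked Notch1 allele. The sources used here do not give the Cre or its driver, what else the controls carried, or whether each library came from its own mouse, so p-values cover the spread between these libraries, which may be technical. Totals ran from 15522100 to 27842496 counts per library. Notch1, on chromosome 2, was measured at 766, 909 and 811 CPM in WT, 679, 872 and 777 CPM in DNMAML and 70.8, 29.5 and 176 CPM in Notch1f/f.

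Gt(ROSA)26Sor is a noncoding RNA gene found by gene trapping in embryonic stem cells. Its promoter is active in most tissues, and its first intron is a standard landing site for transgenes, Cre reporters and Cre-dependent alleles. A widely used conditional DNMAML allele was placed there. Whether any mouse of this study carried an insertion at Rosa26 is not stated by the labels or notes used here. Gene totals do not show where in a gene the reads lie, and reads of a transgene were not analysed here. Setd5, which encodes a SET-domain chromatin protein, starts on the other strand 31 bases from the start of Gt(ROSA)26Sor, so the pair lie head to head. At its far end Gt(ROSA)26Sor overlaps Thumpd3, a tRNA methyltransferase gene of the opposite strand, by 1392 bases, of which 269 are exonic in both. Ssu2 lies 679 kb away, and 17 rows of the table, 3 of them members, have their centre between Ssu2 and Gt(ROSA)26Sor.

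Promoters are shown for Ssu2, the member with the largest difference in Notch1f/f, and for Thumpd3, the neighbour that overlaps Gt(ROSA)26Sor. Sequences are RefSeq promoters on build GRCm38.p6, whose coordinates differ from those of the table. Each runs 5′ to 3′ on the strand of the gene, from 250 bases before the annotated start to 50 after it, and capitals mark the bases from the start on.
Ssu2 (chr6:112387974-112388273, minus strand): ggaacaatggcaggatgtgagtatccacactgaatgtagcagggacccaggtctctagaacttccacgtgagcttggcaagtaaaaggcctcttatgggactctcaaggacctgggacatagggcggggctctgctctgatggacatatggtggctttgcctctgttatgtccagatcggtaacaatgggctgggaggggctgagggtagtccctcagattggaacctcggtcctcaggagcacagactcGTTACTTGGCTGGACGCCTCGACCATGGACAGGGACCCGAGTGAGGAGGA
Thumpd3 (chr6:113046052-113046351, plus strand): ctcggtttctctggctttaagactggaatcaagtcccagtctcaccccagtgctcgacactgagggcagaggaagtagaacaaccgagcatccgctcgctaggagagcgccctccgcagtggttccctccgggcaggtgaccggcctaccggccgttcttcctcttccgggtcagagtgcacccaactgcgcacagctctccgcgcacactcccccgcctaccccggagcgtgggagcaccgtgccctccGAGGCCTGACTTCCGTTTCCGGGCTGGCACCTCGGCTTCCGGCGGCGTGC
The Ssu2 promoter holds 8 CG dinucleotides and the Thumpd3 promoter 26, against a median of 7 over the 32851 promoters of that table. The letters TGGGAA, the core recognised by the Notch partner RBPJ, were searched on both strands. They occur in neither sequence, in 10 of the 43 promoters of the 34 members that had an entry (23.3%), and in 25.6% of all promoters. This says only that these letters are not in these windows.

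Gt(ROSA)26Sor (ENSMUSG00000086429, chromosome 6, 113043843 to 113054294, GRCm39) was lowest in WT, intermediate in DNMAML and highest in Notch1f/f. WT libraries 1, 2 and 3 had 0.624, 0.769 and 1.63 CPM, from 12, 12 and 32 counts. DNMAML libraries had 1.76, 3.80 and 3.62 CPM, from 44, 76 and 99 counts. Notch1f/f libraries had 11.4, 8.72 and 6.60 CPM, from 254, 197 and 117 counts. Each genotype's range was separate from the other 2, with the narrowest gap between the highest WT and the lowest DNMAML library. In bulk samples, fewer cells that express a gene and less of its RNA per cell cannot be told apart. Means were 1.01 ± 0.545, 3.06 ± 1.12 and 8.90 ± 2.39 CPM (SD, n = 3), so Notch1f/f was 8.82-fold above WT and DNMAML 3.03-fold. In an edgeR quasi-likelihood fit to all genes and all 9 libraries, Notch1f/f differed from WT by 3.13 on the log2 scale (SE 0.52, Benjamini-Hochberg adjusted p = 0.0207), which passed the threshold of 0.05. DNMAML differed from WT by 1.59 (SE 0.50, adjusted p = 0.497) and Notch1f/f from DNMAML by 1.54 (SE 0.48, adjusted p = 0.559), and neither passed. Leaving out single libraries ended the Notch1f/f call of Gt(ROSA)26Sor in 3 cases: WT replicate 1 (edgeR adjusted p = 0.108), WT replicate 2 (0.0926) and Notch1f/f replicate 2 (0.066). It was also lost with limma-voom (adjusted p = 0.0686) and in edgeR on the 6 WT and Notch1f/f libraries with the replicate number as a block (0.0642). Without WT replicate 3 the DNMAML difference was 2.13, and over all alternatives it ran from 1.34 to 2.13 with 0 past the threshold. The Notch1f/f library with the most Notch1, replicate 3, had the least Gt(ROSA)26Sor. The library with the least Notch1, replicate 2, was intermediate at 8.72 CPM, and with 3 libraries this order was not tested.

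Ssu2 (ENSMUSG00000034387, chromosome 6, 112336285 to 112364984, minus strand) had few counts outside Notch1f/f. WT libraries had 0.416, 0.385 and 1.43 CPM, from 8, 6 and 28 counts. DNMAML libraries had 0.561, 2.30 and 2.19 CPM, from 14, 46 and 60 counts. Notch1f/f libraries had 7.47, 13.4 and 6.43 CPM, from 167, 303 and 114 counts. Every Notch1f/f library lay above the other 6, while WT and DNMAML ranges overlapped. Against a WT mean of 0.743 ± 0.593 CPM, Notch1f/f rose to 9.11 ± 3.77 CPM (SD, n = 3), and the fitted log2 difference was 3.59 (SE 0.70, edgeR adjusted p = 0.0398). DNMAML had 1.68 ± 0.973 CPM, a log2 difference from WT of 1.16 (SE 0.67, adjusted p = 0.972). This difference was 2.06 without WT replicate 3 and as low as 0.861 without WT replicate 2, and it passed in 0 of 17 alternatives. Notch1f/f differed from DNMAML by 2.43 (SE 0.66, adjusted p = 0.49) in edgeR. That difference was called by DESeq2 (adjusted p = 0.0218) and by edgeR without a filter (adjusted p = 0.00146). Over all settings tried, edgeR, DESeq2 and limma-voom included, adjusted p for Notch1f/f against DNMAML ran from 0.00146 to 1. The edgeR call of Ssu2 against WT was lost without WT replicate 1, 2 or 3 (adjusted p = 0.171, 0.153 and 0.0511), and also on leaving out the third DNMAML library (0.0552) or the second Notch1f/f library (0.158). Neither limma-voom (0.108) nor edgeR on the 6 libraries with the block (0.0621) called it.

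**Figure D1:**
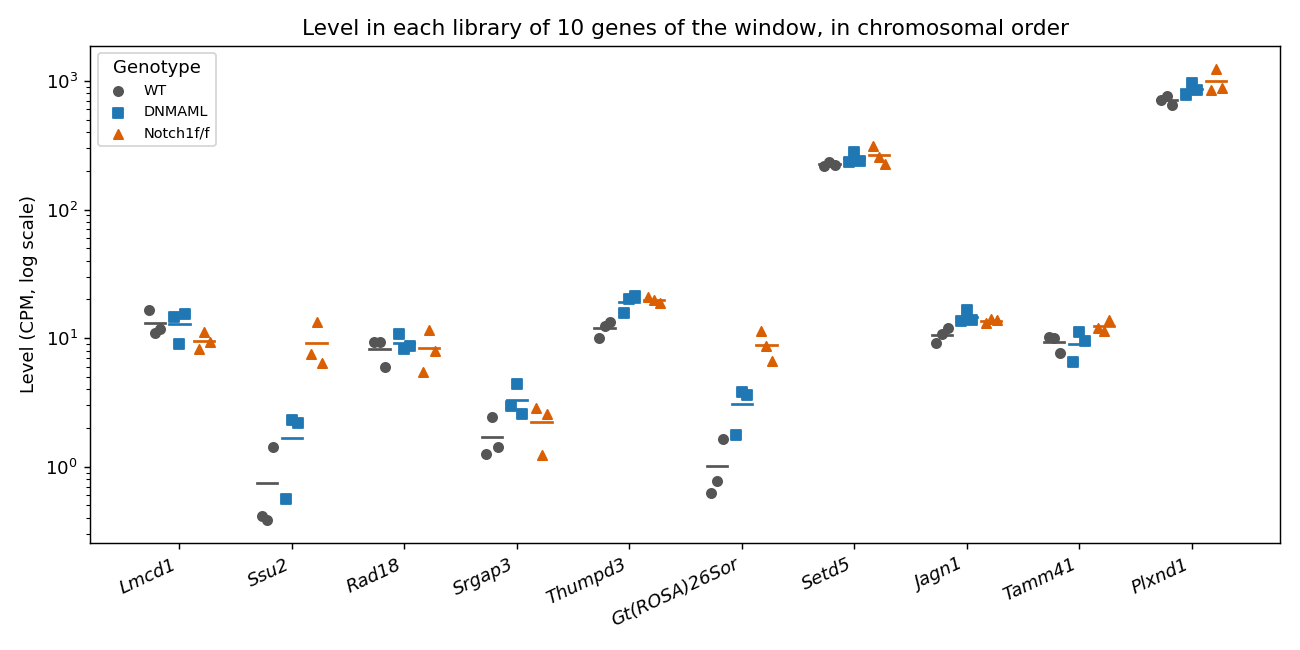
Level of 10 genes of the window in each library (points, CPM on a log scale) with the mean of 3 libraries (lines), by genotype and in chromosomal order. Gt(ROSA)26Sor runs from 0.624 CPM in a WT library to 11.4 CPM in a Notch1f/f library, and Setd5, 31 bases from it, from 220 to 314 CPM.

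Genes next to Gt(ROSA)26Sor had log2 differences below 1 in every comparison. Setd5 had 219.8, 234.8 and 222 CPM in WT, 235.0, 282 and 237 CPM in DNMAML, and 314, 257 and 224 CPM in Notch1f/f. The lowest DNMAML library was level with the highest WT library to within 1 CPM, and the Notch1f/f range overlapped both. The log2 difference of Setd5 from WT was 0.16 (SE 0.14) in DNMAML and 0.23 (SE 0.14) in Notch1f/f, and neither passed in edgeR (adjusted p = 0.999 and 0.54). Thumpd3 had 9.98, 12.4 and 13.5 CPM in WT, 15.7, 20.1 and 21.3 CPM in DNMAML, and 20.8, 19.9 and 18.8 CPM in Notch1f/f. All 6 libraries of the other genotypes were above WT, and they overlapped each other. The log2 difference of Thumpd3 from WT was 0.67 (SE 0.20) in DNMAML and 0.73 (SE 0.20) in Notch1f/f, with edgeR adjusted p = 0.429 and 0.113. DESeq2 called Thumpd3 for Notch1f/f against WT (adjusted p = 0.0195; 0.0195 to 0.371 over all settings). The counting command in the file headers sets no strand option, so reads of Gt(ROSA)26Sor and Thumpd3 cannot be told apart where the genes overlap. Per kb of exon, Gt(ROSA)26Sor had 0.328, 0.995 and 2.89 CPM in WT, DNMAML and Notch1f/f, Thumpd3 1.82, 2.90 and 3.03, and Setd5 12.3, 13.7 and 14.4. Mtmr14, a lipid phosphatase gene, completes the measured neighbourhood and had 33.3 to 43.1 CPM over all 9 libraries.

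Lmcd1 and Rad18 are the members nearest to Ssu2 on either side by gene centre. Lmcd1, which encodes a LIM-domain regulator of transcription and lies 28.9 kb from Ssu2, had 16.5, 11.0 and 11.7 CPM in WT, 14.5, 8.99 and 15.5 CPM in DNMAML, and 8.23, 11.1 and 9.36 CPM in Notch1f/f. Its Notch1f/f difference from WT was -0.45 (SE 0.28), opposite in sign to that of Ssu2 and short of the threshold. Rad18, a ubiquitin ligase of DNA damage tolerance, had log2 differences from WT of 0.16 (SE 0.33) in DNMAML and 0.02 (SE 0.33) in Notch1f/f. Srgap3, a GTPase-activating protein gene between Rad18 and Thumpd3, had 1.25, 2.44 and 1.43 CPM in WT, 2.97, 4.39 and 2.56 CPM in DNMAML, and 2.86, 1.24 and 2.59 CPM in Notch1f/f. DNMAML libraries of Srgap3 were above all WT libraries, with a log2 difference of 0.96 (SE 0.55, edgeR adjusted p = 0.972). Of the genes between Ssu2 and Gt(ROSA)26Sor that were too low for membership, Cav3, a caveolin gene, had 0 to 40 counts in a library and Oxtr, the oxytocin receptor gene, 0 to 8. Grm7, a glutamate receptor gene of the window, had 0 counts in all 9 libraries.

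**Figure D2:**
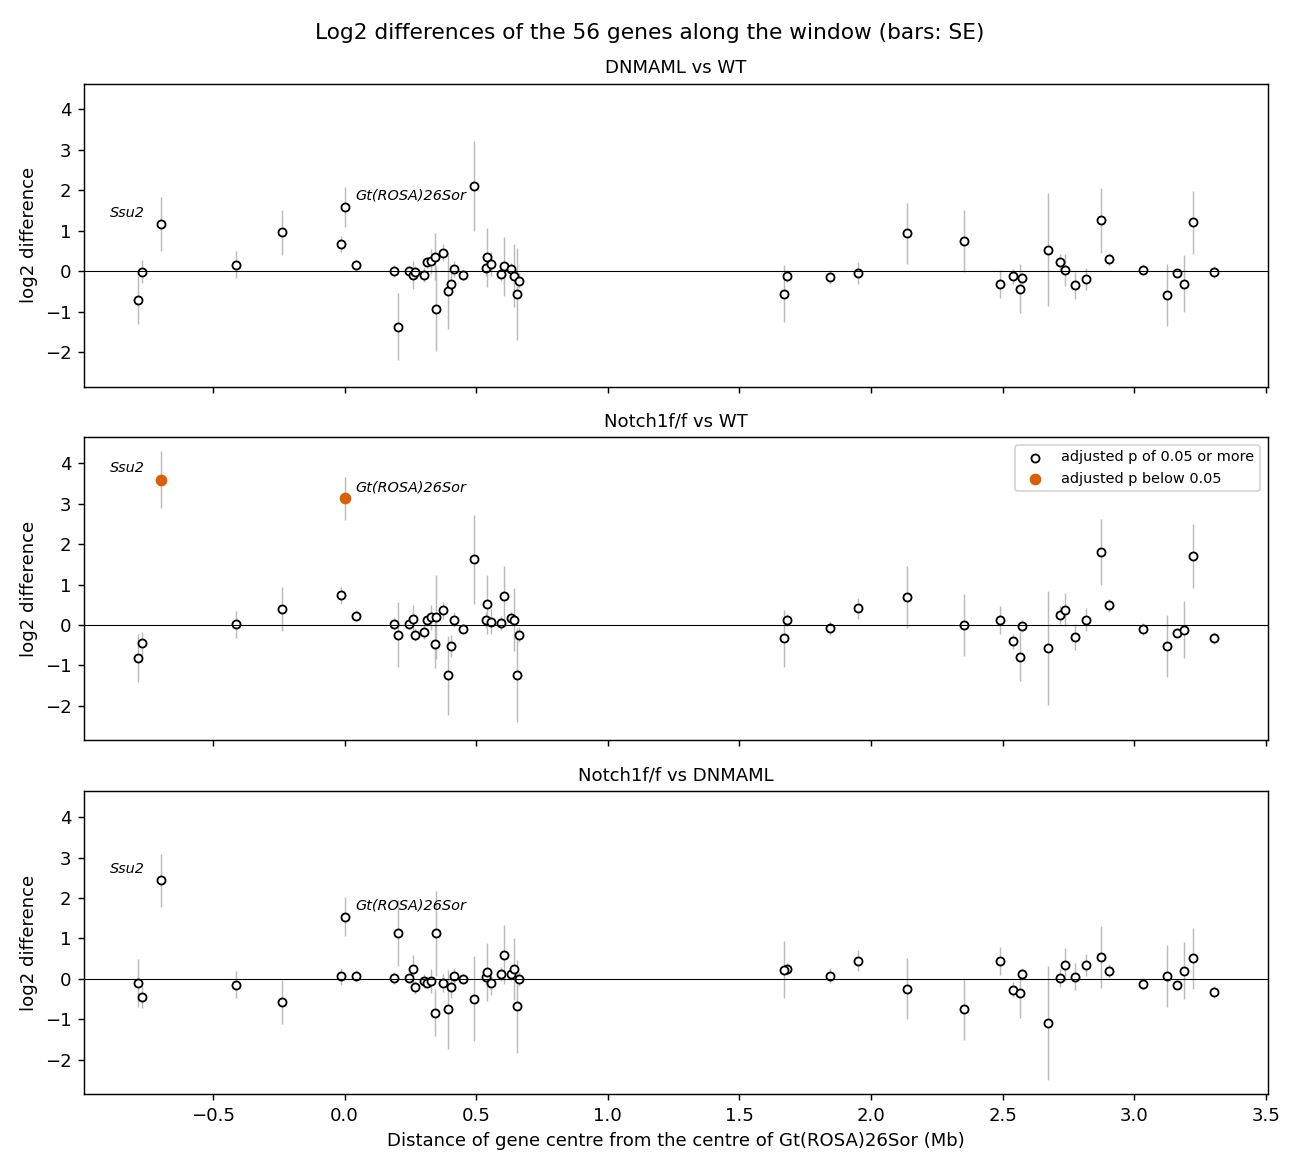
Log2 difference of each of the 56 genes (points, with SE as bars) against the distance of its centre from that of Gt(ROSA)26Sor in Mb, for the 3 comparisons of genotypes. Ssu2 (3.59) and Gt(ROSA)26Sor (3.13) stand at the top for Notch1f/f against WT and are the filled points, while 40 of the 56 genes lie within 0.5 of 0.

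Over the whole window, 2 of 56 members passed for Notch1f/f against WT in edgeR, both higher and both the genes the window was placed around, where 0.836% of the 19486 genes tested passed (0.513% higher and 0.323% lower). Among the 15697 tested genes with a mean of at least 1 CPM, 1.04% passed. Nothing is read from these shares. DESeq2 called 3 members, adding Thumpd3, against 5.44% of all genes, and limma-voom called 0, against 0.251%. In edgeR 5 members had an unadjusted p below 0.05, where 13.4% of all genes did. For DNMAML against WT 0 of 56 members passed in edgeR, DESeq2 or limma-voom, where edgeR called 0.00513% of all genes and DESeq2 1.09%. An unadjusted p below 0.05 was found for 2 members, Gt(ROSA)26Sor and Thumpd3, where 5.97% of genes had one. The labels do not say whether same-numbered WT and DNMAML libraries are pairs. A fit to those 6 libraries with the number as a block also called 0 members. For Notch1f/f against DNMAML edgeR called 0 members, where it called 0.0205% of all genes (0.0103% higher and 0.0103% lower). DESeq2 called 1 member, Ssu2, against 0.893% of all genes, and limma-voom 0, against 0.0154%. In edgeR 2 members, Ssu2 and Gt(ROSA)26Sor, had an unadjusted p below 0.05, against 6.37% of genes.

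The members did not shift as a block. Their median log2 difference was -0.01 for DNMAML against WT, 0.07 for Notch1f/f against WT and 0.04 for Notch1f/f against DNMAML, beside 0.01, 0.02 and 0.00 over all genes tested. Log2 differences smaller than 0.5 in either direction were found for 40 of 56 members in the first comparison, 40 in the second and 43 in the third. The window of the same length directly before this one held 10 genes at that level, with medians of -0.07, -0.08 and 0.04. The window directly after held 50, with medians of -0.08, 0.11 and -0.05. Of the 93 rows of the window below the required mean, 44 had 0 counts in every library, 19 entered the fit, and 0 of these passed in edgeR in any comparison.

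**Figure D3:**
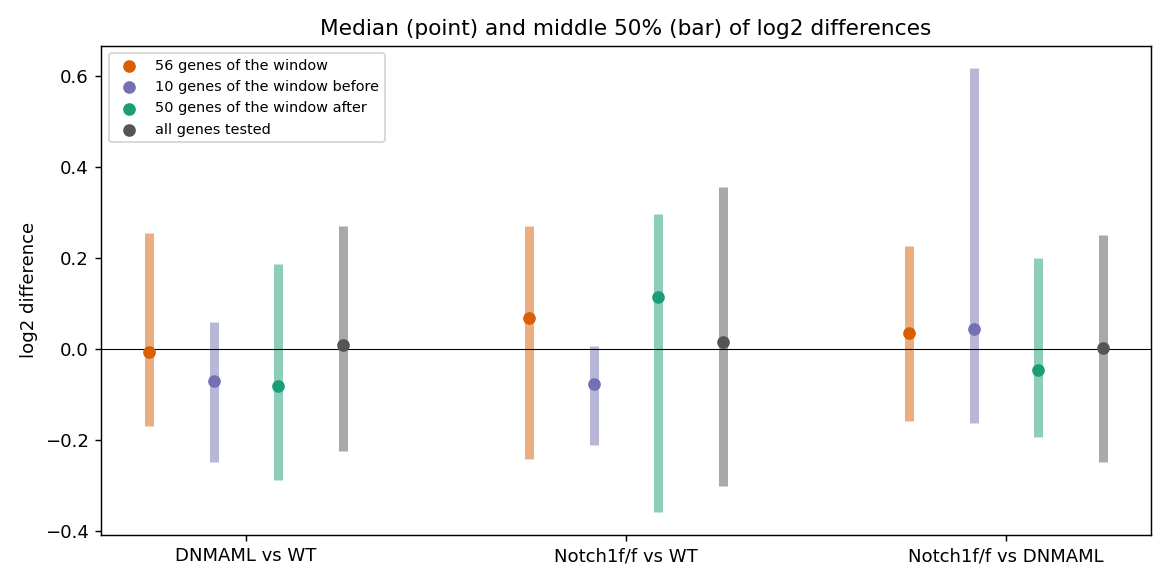
Median (points) and middle 50% (bars) of log2 differences over the 56 genes of the window, the genes of the windows directly before and after it, and all genes tested, for each comparison. Every median lies between -0.08 and 0.11.

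Libraries of 2 genotypes were fully separate for 8 members in DNMAML against WT (14.3%, against 14.4% of all genes). For Notch1f/f this held for 11 members against WT (19.6%, against 17.8% of all genes) and 6 against DNMAML (10.7%, against 9.72%). Among the 15697 tested genes with a mean of at least 1 CPM, as members have, the shares were 15.5%, 19.6% and 9.77% in the same order. Against WT, DNMAML was higher without overlap in 7 members (12.5%), where 7.58% of all genes were, and lower in 1, Mbd4, where 6.84% were. The 7 were Srgap3, Thumpd3, Gt(ROSA)26Sor, Setd5, Jagn1, H1foo and Plxnd1. H1foo, with means of 0.488, 1.17 and 1.70 CPM in WT, DNMAML and Notch1f/f, reached the required mean only through genotypes where it was higher. Its place in this count therefore supports nothing further. For Setd5 the lowest DNMAML library had 235.0 CPM and the highest WT library 234.8 CPM. Notch1f/f was higher than WT without overlap in 7 (12.5%, against 8.5% of all genes) and lower in 4 (7.14%, against 9.33%). These were Ssu2, Thumpd3, Gt(ROSA)26Sor, Jagn1, Tamm41, Plxnd1 and Zfand4 on the higher side, and 5031434C07Rik, Il17rc, Mkrn2 and Washc2 on the lower. Both comparisons share the WT libraries. Among tested genes of at least 1 CPM, DNMAML was higher without overlap in 8.1% and lower in 7.44%, and Notch1f/f in 9.21% and 10.4%. Notch1f/f was higher than DNMAML without overlap in 3, Ssu2, Gt(ROSA)26Sor and Tamm41 (5.36%, against 4.4%), and lower in 3, Rpusd3, Washc2 and March8 (5.36%, against 5.32%).

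Among these, Plxnd1, a semaphorin receptor with a known role in vessel patterning, had the second highest level per kb of all members (117 CPM per kb over the 9 libraries). It had 710, 765 and 654 CPM in WT, 784, 971 and 847 CPM in DNMAML, and 847, 1249 and 887 CPM in Notch1f/f. WT was below all 6 other libraries, and DNMAML and Notch1f/f overlapped. The log2 difference from WT was 0.29 (SE 0.17) in DNMAML and 0.49 (SE 0.17) in Notch1f/f, with edgeR adjusted p = 0.972 and 0.2. Jagn1, an endoplasmic reticulum protein needed by neutrophils, was measured at 9.15, 10.8 and 12.0 CPM in WT. Jagn1 was above this in all 6 other libraries, at 13.6, 16.6 and 13.8 CPM for DNMAML and 13.2, 14.1 and 13.8 CPM for Notch1f/f. Its log2 differences from WT were 0.46 (SE 0.21) and 0.36 (SE 0.21), which did not pass. Tamm41, a mitochondrial enzyme of cardiolipin synthesis, had 11.9, 11.4 and 13.8 CPM in Notch1f/f, above WT (7.65 to 10.3) and DNMAML (6.58 to 11.1). Washc2, a subunit of the WASH complex of endosomes, had 88.2, 92.7 and 93.0 CPM in Notch1f/f, below WT (96.9 to 109) and DNMAML (99.4 to 103), a log2 difference from WT of -0.19 (SE 0.11) that did not pass. Zfand4 had 2.42, 5.85 and 4.17 CPM in Notch1f/f and 0.769 to 1.87 in WT. Among DNMAML libraries, replicate 1 of Zfand4 had 6.82 CPM and the other two 0.899 and 1.02. March8, a membrane-bound ubiquitin ligase, had 49.1, 51.0 and 54.1 CPM in Notch1f/f, below DNMAML (56.03 to 72.9), with a log2 difference of -0.31 (SE 0.15). Rpusd3, a mitochondrial pseudouridine synthase, had 1.70, 1.33 and 0.789 CPM in Notch1f/f against 2.10 to 2.41 in DNMAML, a log2 difference of -0.84 (SE 0.59), and 65.2% of its exon bases are shared with Gm44280. 5031434C07Rik lay at 1.34 to 1.64 CPM in Notch1f/f and 2.14 to 3.33 in WT. None of these 3 passed the test.

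Members were next taken by what they do, and edgeR called none of those in the role lists described from here on in any comparison. DNA repair genes Rad18, Ogg1, Fancd2 and Mbd4 had median differences from WT of 0.03 in DNMAML and 0.08 in Notch1f/f. Fancd2, the central protein of the Fanconi pathway, had 0.208, 1.67 and 0 CPM in WT libraries. Its DNMAML libraries had 4.41, 2.20 and 1.39 CPM and its Notch1f/f libraries 0.94, 2.17 and 2.59, and both overlapped WT. The summed level of 6 cell cycle markers was also higher outside WT, at 10.3 to 13.3 CPM in WT, 193 to 244 in DNMAML and 48.9 to 309 in Notch1f/f, and its part in the values of Fancd2 was not tested. Mbd4, a DNA glycosylase that binds methylated CpG, had 7.80, 11.2 and 7.54 CPM in WT and 7.18, 7.09 and 6.43 in DNMAML, a log2 difference of -0.35 (SE 0.33). Ogg1, the glycosylase that removes oxidised guanine, differed from WT by -0.09 (SE 0.34) and 0.15 (SE 0.34).

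Chromatin and transcription genes Setd5, Brpf1, Tada3, Vgll4 and Pparg had medians of 0.01 in DNMAML and -0.01 in Notch1f/f against WT. Brpf1, a scaffold of histone acetyltransferases, was steady at 68.9 to 85.4 CPM over all 9 libraries. Vgll4, which binds TEAD factors, had 103.9 to 145 CPM in WT, 105 to 119.5 in DNMAML and 87.8 to 142 in Notch1f/f. Tada3, of the SAGA and ATAC acetyltransferase complexes, had 41.9 to 51.9, 43.5 to 44.8 and 31.1 to 50.3 CPM. Among signalling genes, Camk1, a calcium-dependent kinase, differed from WT by -0.03 (SE 0.16) and -0.24 (SE 0.16), and Irak2, a kinase of Toll-like and interleukin 1 receptors, by -0.07 (SE 0.18) and 0.05 (SE 0.18). Il17rc, a subunit of the interleukin 17 receptor, had 12.5, 16.98 and 19.3 CPM in WT and 11.7, 11.1 and 11.4 in Notch1f/f, a log2 difference of -0.51 (SE 0.27, edgeR adjusted p = 0.461). Among ubiquitin ligase genes, Vhl, which targets hypoxia-inducible factors for degradation, differed by 0.18 (SE 0.30) and 0.09 (SE 0.30). Mkrn2 had 26.3, 29.9 and 28.8 CPM in WT and 23.4, 16.3 and 24.8 in Notch1f/f, a log2 difference of -0.40 (SE 0.19) that did not pass. Mkrn2 shares 50.8% of its exon bases with another gene, so its value is uncertain.

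Among RNA and translation genes, Rpl32, a ribosomal protein gene with near-identical copies elsewhere and therefore uncertain, was the highest member per kb (189 CPM per kb). It varied widely within Notch1f/f, at 90.8, 229 and 320 CPM, around a WT range of 123 to 207. Actin, trafficking and membrane genes had medians of -0.01 and 0.12 over 6 members, among them the next 3 genes by level per kb. Brk1, a subunit of the WAVE complex, had 42.5 CPM per kb, Arpc4, of the Arp2/3 complex, 34.6, and Emc3, of the membrane insertion complex, 28.2. Their log2 differences from WT were 0.08 (SE 0.19), 0.22 (SE 0.14) and -0.10 (SE 0.13) in DNMAML, and 0.12, 0.12 and -0.10 in Notch1f/f. Autophagy gene Atg7 and Tamm41 had differences of -0.12 (SE 0.15) and -0.04 (SE 0.27) in DNMAML and 0.11 (SE 0.15) and 0.41 (SE 0.27) in Notch1f/f. The calcium pump gene Atp2b2 and the genes Cidec and Timp4 were below the required mean.

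**Figure D4:**
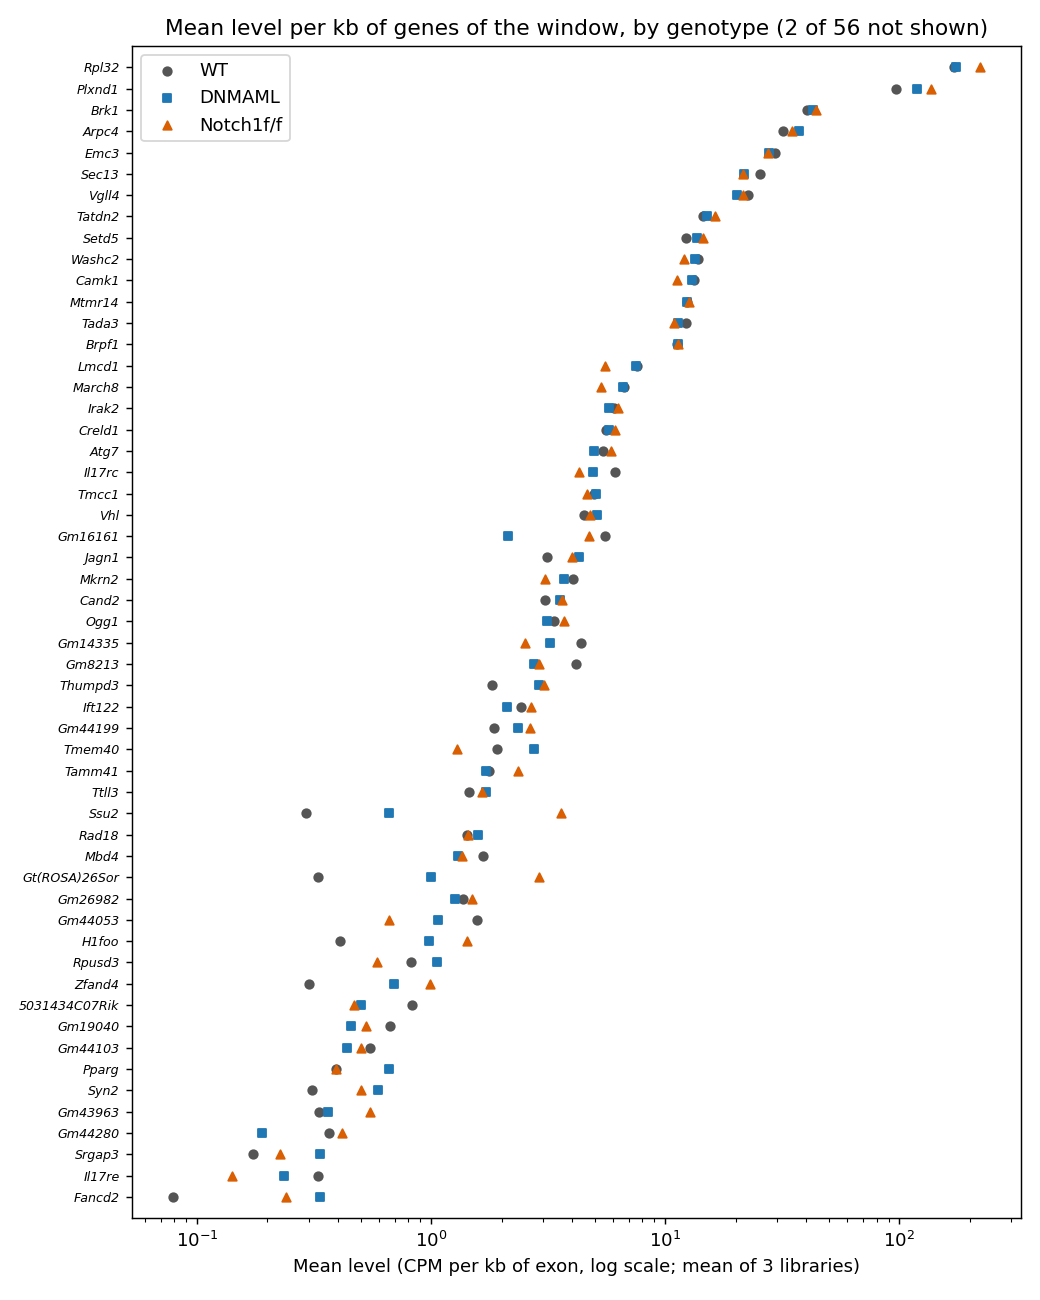
Mean level per kb of exon of the genes of the window, 2 of 56 not shown (CPM per kb, log scale, mean of 3 libraries) by genotype, ordered by the mean over all 9 libraries. Rpl32 (189) and Plxnd1 (117) are highest. The genotypes lie close for most genes and spread for Gt(ROSA)26Sor and Ssu2, and also for other low genes such as Fancd2, H1foo, Zfand4 and Gm16161.

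Besides Gt(ROSA)26Sor and Ssu2, 8 members differed by more than 1 on the log2 scale in some comparison, all with a mean below 5 CPM: Fancd2, Zfand4, H1foo, Tmem40, Il17re, Gm16161, Gm44280 and Gm44053. Il17re, an interleukin 17 receptor family gene, had 2 to 32 counts in Notch1f/f and 14 to 78 in WT. H1foo, the oocyte linker histone gene, had 8 to 10 counts in WT, 22 to 31 in DNMAML and 11 to 73 in Notch1f/f. Its Notch1f/f difference was 1.80 (SE 0.81, edgeR adjusted p = 0.366). H1foo and Fancd2 had WT means of 0.488 and 0.625 CPM and are members only through genotypes where they were higher. Their differences from WT are given as a description. Tmem40 reached 15.5 CPM in DNMAML replicate 1, against 1.10 in each of the other two, and was at 0 in Notch1f/f replicate 2. Of the 56 members, 22 had a mean below 5 CPM, 11 carry clone or model names, and 25 share exon bases with another gene.

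The sorted identity was checked on markers, and 6 endothelial markers summed to 14722 to 16220 CPM in WT, 13838 to 15130 in DNMAML and 12759 to 15773 in Notch1f/f, with 0 of 6 passing in edgeR in any comparison. Among markers of other cells, the 6 mural markers summed to 339 to 504 CPM in WT, 221 to 415 in DNMAML and 100.1 to 179 in Notch1f/f, where 3 of 6 passed against WT, and the 5 alveolar epithelial markers to 332 to 2959, 147 to 1412 and 134 to 926. The 5 fibroblast markers summed to 218 to 735, 167 to 766 and 93.8 to 275 CPM, and the 5 macrophage markers to 104 to 817, 261 to 533 and 115 to 304. The 4 leukocyte markers summed to 8.05 to 43.6, 8.48 to 117 and 18.2 to 46.9 CPM, and the 4 neutrophil markers to 1.15 to 6.76, 2.92 to 80.5 and 6.73 to 10.1. Of the 6 cell cycle markers, 1 passed in DNMAML and 4 in Notch1f/f against WT, and the part of these cells in the values of Gt(ROSA)26Sor and Ssu2 was not tested. Tyrobp, Adgre1, Marco, S100a9, Retnlg, Csf3r, Ccnb1 and Birc5 were at 0 in at least 1 library.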

How the data were processed

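The authors deposited one table of raw counts, made with featureCounts 2.0.1 and Ensembl annotation release 107 of GRCm39, per the file headers. No strand, pair or multi-mapping setting appears in its command line. STAR 2.7 and, unlike the header, build mm10 are named per the submitters' processing notes. Between 76.6% and 89% of counts below 200 were even, so read pairs may enter as 2 counts. Symbols came from a GRCm38 annotation (52073 of 56748 identifiers, and all 56 members).

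Genes were filtered with filterByExpr by genotype (19486 left). A quasi-likelihood model in edgeR 4.0.16 (R 4.3.3) with TMM scaling and robust dispersions used genotype as its sole factor across 9 libraries. It was tested on simulated data, with an outcome not reported here. P-values were Benjamini-Hochberg adjusted over all genes, with a threshold of 0.05. CPM printed are TMM-scaled, except those near the required mean, which use plain totals as the member rule does. SE is the absolute log2 difference divided by the square root of F, so it restates the test. DESeq2 1.42.0, limma-voom 3.58.1, other scaling, filters and blocks, and leaving out each library were alternatives.

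Members, role lists and markers were chosen with earlier results of these data known. Named were the 2 central genes and their neighbours, every call, the largest differences without overlap, the highest levels per kb, genes nearest the required mean, and up to 4 of each role list; values of some members are not reported here. The labels number libraries 1 to 3 without saying what a number marks. Deviations of same-numbered WT and DNMAML libraries correlated at 0.238, 0.344 and 0.179, and those of different numbers at -0.27 to 0.0774. Same-numbered libraries involving Notch1f/f ran from -0.13 to 0.212, while Notch1f/f replicate 1 and WT replicate 2 reached 0.352. These values do not settle whether the numbers mark pairs. The main fit did not pair libraries, and the number entered as a block only in alternatives.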

Additional observations from a re-analysis of the deposited data

How the results depend on the processing

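For Notch1f/f against WT, the 2 member calls fell to 0 with limma-voom, with the replicate block in the 6 libraries of both genotypes, and among members with a mean of at least 5 CPM, which leaves both called genes out; leaving out single libraries gave 0 to 2. With that block Gt(ROSA)26Sor had a log2 difference of 3.21 (edgeR adjusted p = 0.0642) and Ssu2 3.73 (0.0621). Whether the numbers mark pairs is not known, and the main fit did not pair libraries. The block in all 9 libraries left 2 calls, and it changed no other member call. For Notch1f/f against DNMAML the 0 calls became 1, Ssu2, with DESeq2 and without a filter. Without single libraries the members' median log2 difference ran from -0.0803 (without DNMAML replicate 1) to 0.0671 (without DNMAML replicate 2) for DNMAML against WT, through 0, from -0.0199 to 0.0776 for Notch1f/f against WT and from -0.0808 to 0.0434 for Notch1f/f against DNMAML, lowest in the last 2 without Notch1f/f replicate 3; the cause was not tested. In all 17 alternatives the differences of Gt(ROSA)26Sor and Ssu2 from WT stayed positive in both genotypes. For Gt(ROSA)26Sor in Notch1f/f they ran from 2.89 to 3.67 and passed in 12, and for Ssu2 from 3.22 to 4.49 and passed in 10. Over all members, comparisons and alternatives, 12 calls were lost, 3 gained and 0 turned in direction, and 163 differences that passed in neither fit changed sign. WT levels of both genes rest on 6 to 32 counts a library, all of them even, and read pairs may enter as 2 counts. This limits the precision of their fold changes.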
